A study of Mus musculus with 14 samples.

Results

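Open chromatin of wild-type MPP3 cells was compared with that of wild-type LT-HSC, in mouse bone marrow. The comparison holds 4 of the 14 ATAC-seq libraries of the study, 2 of MPP3 WT and 2 of LT-HSC WT, and in each cell type these are replicates A and B. They were chosen by cell type and genotype in the labels. In the file, 25129 of 705361 regions (3.56%) had a mean value of at least 100 over the 14 libraries, and all values below are for these regions. Of them, 12475 lay within 1000 bp of an annotated transcription start of a protein-coding gene and are called promoter regions. The other 12654, called distal, overlapped a gene (7431, intragenic) or lay between genes (5223, intergenic). A region said to lie in or inside a gene overlaps it, not always over its full width. A gene named with a distal region gives its position, since no region was shown to act on a gene.

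All mice were C57BL/6J. The WT donors carried the Mx-Cre transgene, in which an interferon-inducible promoter drives the Cre recombinase. Mutant donors, whose 5 MPP3 and 5 LT-HSC libraries were used for the shared spread and for a second reading of the WT differences, carried a Dnmt3a-flR878H/+ genotype, an Npm1-frt/+ genotype or both together. Each lethally irradiated CD45.1 recipient had been given 1000000 marrow cells of a young donor. Poly(I:C), which induces interferon, followed after 4 weeks, tamoxifen after 4 more, and the cells were sorted after a further 4. The WT recipients had both agents too, so the WT cells described here had rebuilt the marrow of an irradiated host and had been through an interferon stimulus. Whether host cells were kept out of the sort, how many mice each library pooled and whether replicates came from separate mice are not stated in the labels, and the spread behind each p-value may thus be only technical.

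LT-HSC are rare, mostly quiescent cells that sustain all blood lineages for life. MPP3 are their dividing progeny, still multipotent but biased towards granulocytes and monocytes, and C/EBPα, PU.1, GFI1 and IRF8 are the transcription factors best known for that bias. In ATAC-seq a transposase cuts accessible DNA, so a region gains signal where nucleosomes make way for bound factors. Promoters rich in CpG dinucleotides are open in most cell types, while distal elements, enhancers among them, differ more between cell types. In sorted bulk cells, a region open in more of the cells and a region more open in each cell cannot be told apart.

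The promoter windows of 4 genes frame what follows and were picked after the values were seen. Ctsg and Mpo encode granule proteins of neutrophils and monocytes, and their promoter regions had more signal in MPP3. Gp1ba encodes a platelet receptor subunit, and its promoter region had less. Hlf encodes a transcription factor of stem cells, and its promoter region had near-equal signal in both cell types. The RefSeq windows (GRCm38.p6, the build of the file's mm10 coordinates) run from 250 bases before to 50 bases after the start, 5′ to 3′ on the strand of the gene, with each CG dinucleotide in capitals.
Ctsg (chr14:56102525-56102824, minus strand): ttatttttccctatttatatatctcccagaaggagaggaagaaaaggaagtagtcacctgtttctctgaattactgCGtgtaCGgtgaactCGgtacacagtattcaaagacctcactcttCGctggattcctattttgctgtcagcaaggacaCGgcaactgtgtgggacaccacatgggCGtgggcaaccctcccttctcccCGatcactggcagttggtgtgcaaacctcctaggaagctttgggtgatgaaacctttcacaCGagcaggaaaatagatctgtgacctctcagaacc
Mpo (chr11:87793534-87793833, plus strand): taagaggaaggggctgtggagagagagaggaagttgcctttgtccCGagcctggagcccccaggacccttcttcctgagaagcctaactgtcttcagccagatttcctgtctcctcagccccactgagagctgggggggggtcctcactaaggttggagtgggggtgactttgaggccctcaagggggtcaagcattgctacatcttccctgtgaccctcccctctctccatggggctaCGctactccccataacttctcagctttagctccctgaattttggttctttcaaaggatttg
Gp1ba (chr11:70638872-70639171, plus strand): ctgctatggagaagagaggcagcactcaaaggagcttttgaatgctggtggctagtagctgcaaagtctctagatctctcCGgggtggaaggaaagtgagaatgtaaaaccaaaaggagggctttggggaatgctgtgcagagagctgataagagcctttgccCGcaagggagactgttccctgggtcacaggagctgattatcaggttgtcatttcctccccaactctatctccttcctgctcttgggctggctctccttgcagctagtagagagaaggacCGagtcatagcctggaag
Hlf (chr11:90390868-90391167, minus strand): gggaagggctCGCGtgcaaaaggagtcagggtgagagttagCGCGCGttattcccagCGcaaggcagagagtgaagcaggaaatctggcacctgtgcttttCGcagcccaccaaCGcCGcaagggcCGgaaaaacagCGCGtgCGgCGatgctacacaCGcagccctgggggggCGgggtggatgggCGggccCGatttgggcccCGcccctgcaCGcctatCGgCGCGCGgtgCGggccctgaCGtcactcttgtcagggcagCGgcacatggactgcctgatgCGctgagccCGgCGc
The Ctsg window held 8 CG, the Mpo window 2, the Gp1ba window 3 and the Hlf window 30. The windows were searched on both strands for letters bound by C/EBP factors (TTGCNNAA), GATA factors (AGATAA), PU.1 (GAGGAAGT) and RUNX factors (TGTGGT). The Mpo window matched the PU.1 letters at position -224 from the start and the Ctsg window the RUNX letters at position -79. The Gp1ba and Hlf windows matched none of the 4 as written. Other forms of these letters were not searched. The Gp1ba window holds TGATAA, which differs from the GATA letters in its first base only.

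The 4 libraries differed in depth and in how much of their signal lay in the tested regions. From a step fitted to the low values of each library, MPP3 WT A and B held about 19.8 and 53.4 M reads in regions, against 10.9 and 11.9 M in LT-HSC WT A and B. The fit was weakest in MPP3 B (r = 0.669), where the read numbers are thus the least certain. A normalized signal of 100 stood for about 92.6 and 427 reads in MPP3 and for 77.5 and 55.5 reads in LT-HSC, so that low LT-HSC values rest on the fewest reads. Tested regions held 29.8% and 51.6% of the signal in MPP3 A and B, against 44.8% and 30.0% in LT-HSC A and B. The library with the larger share was thus replicate B in MPP3 and replicate A in LT-HSC. The labels were checked on marker genes. Over 22 regions of 9 MPP3 marker genes the summed signal was 5248 and 5125 in MPP3, against 3832 and 3611 in LT-HSC. Over 31 regions of 7 LT-HSC marker genes it was 5881 and 5732 in MPP3, against 6386 and 6460 in LT-HSC. Both marker sums separated the cell types in the direction of the labels, with no overlap of libraries. Earlier results of these data were known when the markers were chosen, so neither sum is an independent check. The LT-HSC sum is a weak check. Only 6 of its 31 regions had libraries apart on the lower side, near the 18.9% of all regions, and 1 had them apart on the higher side. The sum of erythroid and megakaryocyte genes was apart as well, with 11811 and 10654 in MPP3, against 12719 and 13722 in LT-HSC.

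MPP3 and LT-HSC differed most in distal regions, in both directions, and no single region reached the adjusted threshold. limma, fitted to log2 values of all 14 libraries, gave 0 of 25129 regions (0%) at an adjusted p under 0.05, and the smallest adjusted p was 0.168. At an unadjusted p under 0.05 there were 1429 regions (5.69%), where 5% are due if nothing differs. Of these, 878 (3.49%) were higher and 551 (2.19%) were lower in MPP3. The count at the unadjusted threshold was 902 without MPP3 A, 895 without MPP3 B, 2072 without LT-HSC A and 803 without LT-HSC B, and at the adjusted threshold 12 regions passed without LT-HSC A and 0 without each of the others. Both MPP3 libraries lay above both LT-HSC libraries in 4851 regions (19.3%) and below both in 4749 (18.9%).

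Promoter regions held 187 regions higher and 158 lower in MPP3 at the unadjusted threshold, which is 1.5% and 1.27% of them. Distal regions held 691 higher and 393 lower, which is 5.46% and 3.11%. Differences of more than 2-fold were found in 104 promoter regions (0.834%) on the higher side and 91 (0.729%) on the lower side, beside 724 (5.72%) and 399 (3.15%) of the distal regions. Distal regions had less signal, with a median of 146 against 308 in promoter regions, and lower values vary more. In regions with a mean of 200 to 400, the shares at the unadjusted threshold were 5.96% higher and 3.75% lower among 2719 distal regions. Among 4703 promoter regions they were 1.47% higher and 1.30% lower. The gap between the classes was thus present within this bin. Median signal there was still lower in distal regions, at 255 against 287 in promoter regions. Promoter shares, both directions together, lie below the 5% due if nothing differs. limma drew the spread of each region towards a trend with level that both classes shared. At 200 to 400 the SD that replicate differences give was 0.315 in promoter and 0.355 in distal regions. The part of the shared trend in the gap was not tested, and the gap is given as a description without a test. These counts turned on single libraries: without MPP3 A the distal counts were 266 higher and 432 lower and the promoter counts 67 and 137, so that lower regions outnumbered higher ones, and without LT-HSC B they were 524 and 125, and 106 and 48. Without MPP3 B the distal counts were 486 and 185 and the promoter counts 102 and 122, and without LT-HSC A they were 776 and 593, and 443 and 260. Over 2-fold, the promoter counts were 385 higher and 364 lower without LT-HSC A, 309 lower without MPP3 A and 199 higher without MPP3 B, and the distal counts 1152 higher and 1106 lower, 978 lower and 1139 higher in the same 3 cases.

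The same split appears when the spread of the MPP3 minus LT-HSC difference is set beside the spread that the replicates alone give. Over distal regions the SD of the log2 difference was 0.596, against 0.469 from the replicate differences, a ratio of 1.27. Over promoter regions it was 0.364, against 0.350, a ratio of 1.04. At 200 to 400 the ratio was 1.35 in distal and 1.08 in promoter regions. At 400 and over the order was reversed, with 1.12 in the 4373 promoter regions and 0.936 in the 651 distal regions. Among the latter it was 1.14 in the 350 intragenic and 0.824 in the 301 intergenic ones. In those intergenic regions the SD between the MPP3 replicates was 0.643, against 0.437 at 200 to 400. At the unadjusted threshold 3.38% of the 651 were higher and 1.54% lower, against 0.960% and 0.503% of promoter regions of that level.

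**Figure D1:**
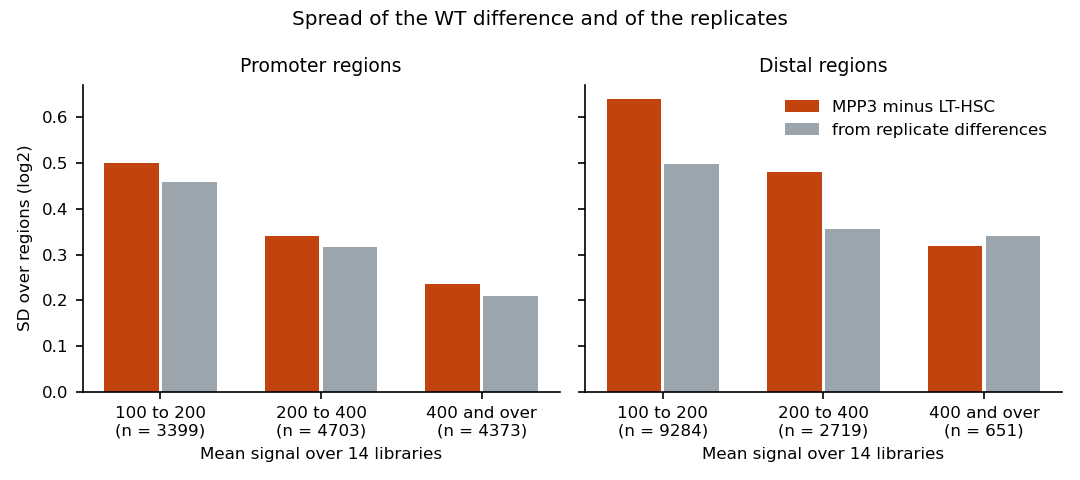
SD over regions of the log2 difference between WT MPP3 and WT LT-HSC (orange) and SD that the differences between replicates alone give (grey), for promoter regions (left) and distal regions (right) in 3 bins of the mean signal over 14 libraries. The orange bar exceeds the grey one most in distal regions under 400, with ratios of 1.28 and 1.35, and lies below it in distal regions of 400 and over, at 0.936.

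Distance from a start ordered the regions in the same way. Among 11374 regions that overlap a start, 1.29% were higher and 1.17% lower at the unadjusted threshold. The shares were 3.63% and 2.27% within 1000 bp, 3.87% and 2.48% from 1000 to 5000 bp, 5.39% and 2.92% from 5000 to 20000 bp, and 6.19% and 3.36% from 20000 to 50000 bp. Beyond 100000 bp, or with no start on the contig, they were 6.56% and 3.86% of 1113 regions. Higher regions outnumbered lower ones in each of these bins with all libraries in the fit. Intergenic regions had 315 higher and 150 lower, and intragenic regions 376 higher and 243 lower.

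CpG content divided the promoter regions further. A RefSeq window was matched to 9298 of them. Among the 439 windows with 0 to 5 CG, the kind to which Mpo and Gp1ba belong, 23 regions (5.24%) were higher and 10 (2.28%) lower, and the SD of the difference was 0.499 against 0.424 from replicates. Among the 3453 windows with 26 or more CG, the kind to which Hlf belongs, 34 (0.985%) were higher and 26 (0.753%) lower, and the SDs were 0.303 and 0.301. CpG-poor promoter regions also had less signal, with a median of 181 against 419, so level and CpG content cannot be told apart here. Promoter regions past the unadjusted threshold with no overlap of libraries gave 115 windows on the higher side and 104 on the lower side. The ETS letters CCGGAA were present in 21.7% of the windows on the higher side, 9.6% of those on the lower side and 27.3% of all 9298. The PU.1 letters, which share GGAA with the ETS letters, were present in 3.5%, 3.8% and 2.9%, the C/EBP letters in 10.4%, 5.8% and 7.5%, and the GATA letters in 8.7%, 9.6% and 5.1%. These shares describe letters only.

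The overall level of distal against promoter regions did not separate the cell types. The median log2 level of distal regions minus that of promoter regions was -0.89 and -1.23 in MPP3 A and B, against -1.14 and -0.93 in LT-HSC A and B. The libraries overlapped, and the mean difference of -0.025 had an exact two-sided permutation p of 1, where 4 libraries allow no p below 0.333. The difference was -0.20 without MPP3 A, 0.15 without MPP3 B, -0.13 without LT-HSC A and 0.079 without LT-HSC B. The median difference of the regions was -0.019 in distal and -0.0012 in promoter regions, after scaling factors computed over both.

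Among single regions, those of smallest p lay at genes of varied function. On the higher side they included the peroxidase gene Lpo, the cathepsin gene Ctsz and the myeloid receptor genes Ltb4r2 and Trem3, and on the lower side the homeobox gene Nkx2-3 and several genes of the cytoskeleton and of signalling. The text names the 6 regions of smallest p in each class and direction whose libraries do not overlap, 1 per gene. These regions were chosen for their WT difference, so that difference is a description, and adjusted p ran between 0.168 and 0.517.

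The distal region of smallest p overlapped Lpo, the lactoperoxidase gene next to Mpo, and began 10066 bp past the Mpo start (chr11:87803850-87810872). It had 1187 and 852 in MPP3 A and B, against 177 and 259 in LT-HSC A and B (log2 difference 2.21, SE 0.38, adjusted p = 0.168). Both MPP3 libraries lay far above both LT-HSC libraries. A region in Atp9b, which encodes a P4-type ATPase, had 315 and 297 in MPP3, against 77.4 and 80.9 in LT-HSC (1.90, SE 0.34), and one in the atypical kinase gene Mapk4 had 212 and 309, against 41.5 and 48.7 (2.41, SE 0.44). The replicates of each cell type lay close together in both. The other 3 were regions near Gramd1b, whose product moves cholesterol between membranes (3.51, SE 0.68), in the DNA repair gene Fanca (2.31, SE 0.46) and near Nt5e, the gene of the ectonucleotidase CD73 (2.58, SE 0.53). Gramd1b had 124 and 81.4 in MPP3, against 10.1 and 1.95 in LT-HSC, where these values stand for about 8 reads and 1 read. The 1.95 is the lowest value found in LT-HSC B. The Gramd1b difference was 4.15 with a pseudocount of 1 and 2.43 with a pseudocount of 16.

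On the lower side of the distal class, a region 10512 bp upstream of Nkx2-3, a homeobox gene, had 157 and 164 in MPP3, against 443 and 555 in LT-HSC (-1.61, SE 0.33, adjusted p = 0.168; chr19:43598869-43601813). The libraries of each cell type lay close together here, and the groups were far apart. A region in the cadherin gene Cdh23 had 67.9 and 123 in MPP3, against 309 and 357 in LT-HSC (-1.81, SE 0.38). One in Pik3ap1, which encodes the signalling adaptor BCAP, had 67.9 and 91.0, against 261 and 360 (-1.91, SE 0.41). A second region of Pik3ap1 had the opposite sign, with 211 and 223 in MPP3, against 39.9 and 72.1 in LT-HSC (1.93, SE 0.62). The regions at Prdm11 (-1.32, SE 0.30), Usp3, a deubiquitinase gene (-2.07, SE 0.49), and Rangrf (-2.30, SE 0.58) completed the class. At Rangrf the signal was 24.6 and 37.9 in MPP3, against 170 and 163 in LT-HSC.

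On the higher side of the promoter class, the region at Ctsz, the gene of the lysosomal protease cathepsin Z, had 675 and 522 in MPP3, against 229 and 204 in LT-HSC (1.44, SE 0.29, adjusted p = 0.168). Ltb4r2, a leukotriene B4 receptor gene, had 213 and 160 in MPP3, against 62.2 and 29.2 in LT-HSC (2.01, SE 0.45). Trem3, a gene of the TREM family of myeloid receptors, had 149 and 151, against 14.2 and 29.2 (2.64, SE 0.59). Each of these 3 regions was well apart between cell types, with weak LT-HSC signal at Trem3. The others lay at Hal, the gene of the histidine-degrading enzyme histidine ammonia-lyase (1.94, SE 0.44), Vrk1, a nuclear kinase gene (2.67, SE 0.59), and Dpy19l4 (1.24, SE 0.31).

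On the lower side of the promoter class, the region at Obsl1, the gene of a cytoskeletal adaptor, had 165 and 129 in MPP3, against 313 and 431 in LT-HSC (-1.31, SE 0.33, adjusted p = 0.322). Prkg1, the gene of a cGMP-dependent protein kinase, had 152 and 169 in MPP3, against 424 and 348 in LT-HSC (-1.24, SE 0.34). The others were Mapre3, the gene of the microtubule-end protein EB3 (-1.21, SE 0.32), Frmd5 (-1.14, SE 0.32), the ephrin ligand gene Efnb3 (-1.49, SE 0.42) and the neuropeptide gene Qrfp (-1.29, SE 0.38). All 6 had differences of similar size.

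**Figure D2:**
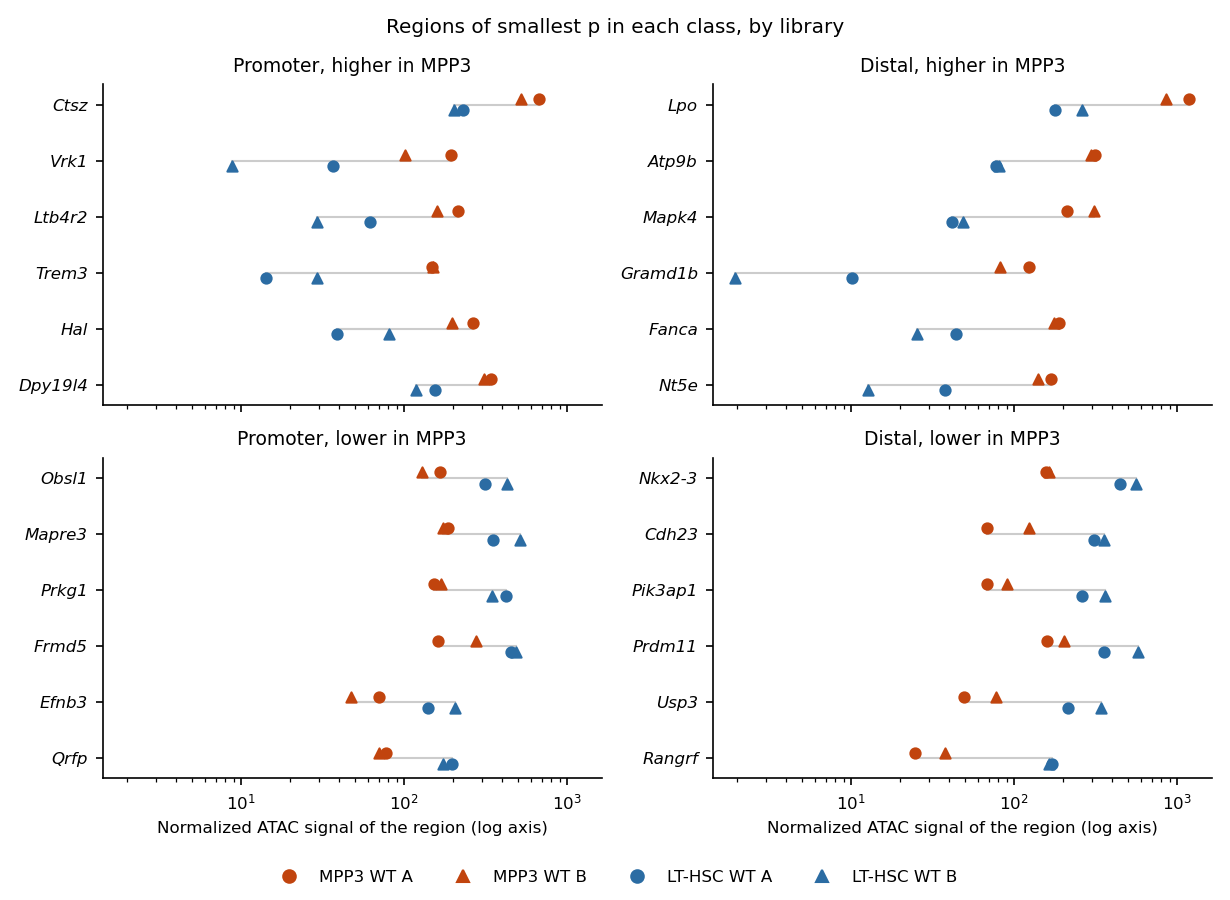
Normalized ATAC signal (log axis) of the 24 regions of smallest p, 6 in each class and direction, with MPP3 WT in orange, LT-HSC WT in blue, circles for replicate A and triangles for replicate B. By the rule of choice the colours do not overlap in any row; the lowest points are the 10.1 and 1.95 of LT-HSC at Gramd1b, and the highest the 1187 and 852 of MPP3 at Lpo.

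Genes of neutrophil and monocyte granules formed the list that stood highest. Of 22 genes, 12 had a tested region, and 17 of their 18 regions had a positive difference, with a median log2 difference of 1.09 beside -0.0079 over all tested regions. At the unadjusted threshold 9 of the 18 were higher (50%, against 3.49% of all regions) and 0 lower, and 13 had MPP3 libraries above both LT-HSC libraries (19.3% of all regions). The median was 0.758 without MPP3 A and 1.10 without MPP3 B, and 0.496 with only regions of a mean of at least 200. Earlier results of these data were known when the lists were made, so the lists are no independent evidence of direction.

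Myeloperoxidase makes hypochlorous acid in neutrophil granules. The region 2728 bp upstream of the Mpo start had 211 and 198 in MPP3, against 64.7 and 34.1 in LT-HSC (2.03, SE 0.48, adjusted p = 0.246). The Mpo promoter region, which holds the window printed above, had 269 and 210 in MPP3, against 82.9 and 76.0 in LT-HSC (1.54, SE 0.62, adjusted p = 0.785). The groups did not overlap in either region, and the LT-HSC replicates lay close together at the promoter region only. Ctsg encodes cathepsin G, a serine protease of the same granules. Its promoter region (chr14:56101605-56102874) had 163 and 137 in MPP3, against 16.7 and 1.95 in LT-HSC (3.79, SE 1.14, adjusted p = 0.527), and its upstream region 139 and 170, against 30.8 and 1.95 (3.45, SE 0.72, adjusted p = 0.168). LT-HSC B had about 1 read in each, the lowest value found in that library, so whether there was any read cannot be told. The size of the difference is thus poorly fixed. At the promoter region it was 4.38 with a pseudocount of 1, 2.77 with a pseudocount of 16 and 2.89 without LT-HSC B. At the upstream region it was 2.18 without LT-HSC B.

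The neighbouring protease genes Elane and Prtn3, for neutrophil elastase and proteinase 3, had smaller differences. The Elane promoter region had 159 and 175 in MPP3, against 125 and 101 in LT-HSC (0.55, SE 0.60). Prtn3 had an intragenic region with 349 and 320 in MPP3, against 199 and 193 in LT-HSC (0.76, SE 0.30, adjusted p = 0.785). The libraries did not overlap at either gene. Elsewhere on the list, regions near Fcnb, the gene of a ficolin (1.39), and Serpinb1a, the gene of an inhibitor of these proteases (1.28), had an unadjusted p under 0.05. Genes of later granules were near even or overlapped, with Ltf, the lactoferrin gene, at -0.11 and Cd177 at 0.07, and the Lcn2 promoter region at 1.21 with overlapping libraries. Genes of mast cells, basophils and eosinophils, which are granulocytes as well, are given beside this list. Their summed signal over 9 regions of 4 of 16 genes was 1202 and 1097 in MPP3, against 795 and 825 in LT-HSC, and their part in the granule result was not tested.

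Genes of myeloid transcription factors held a few regions with higher signal in MPP3 among many that were near even. Of 77 regions of 16 genes, 44 had a positive difference, with a median of 0.10, and 10 were higher and 1 lower at the unadjusted threshold (13.0% and 1.30%, against 3.49% and 2.19% of all regions). The median was 0.23 without MPP3 B. A region 24509 bp from the start of Gfi1, a repressor gene of granulocyte development, had 198 and 209 in MPP3, against 71.3 and 46.8 in LT-HSC (1.75, SE 0.46, adjusted p = 0.350), while the Gfi1 promoter region had 722 and 680, against 439 and 609 (0.43, SE 0.27). A region 64780 bp from Cebpb, a C/EBP factor gene of emergency granulopoiesis, had 273 and 367 in MPP3, against 140 and 142 in LT-HSC (1.14, SE 0.32). The Cebpb promoter region had 745.5 and 692, against 578 and 380 (0.61, SE 0.33). The distal regions named at both genes are those of smallest p. At Gfi1 the other distal region, inside the gene, had 65.5 and 41.8 in MPP3, against 89.0 and 80.9 in LT-HSC (-0.65, SE 0.52), with libraries apart on the lower side.

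PU.1, encoded by Spi1, and C/EBPα, encoded by Cebpa, had higher promoter signal in MPP3. The main Spi1 promoter region had 597 and 598 in MPP3, against 421 and 355 in LT-HSC (0.62, SE 0.25), and a smaller region 813 bp from a start had 92.5 and 121, against 38.9 and 23.4 (1.68, SE 0.53, adjusted p = 0.579). The Cebpa promoter region had 734 and 959 in MPP3, against 593 and 562 in LT-HSC (0.54, SE 0.23, adjusted p = 0.835). The libraries did not overlap at these regions, of which the smaller Spi1 region had weak signal in LT-HSC. At Irf8, a factor gene of monocytes and dendritic cells, none of the 5 regions was apart. Its promoter region had 232 and 149 in MPP3, against 138 and 284 in LT-HSC (-0.09, SE 0.44). The Cebpe promoter region, for a factor of late granulocytes, had 284 and 202, against 91.5 and 246 (0.66, SE 0.44), so LT-HSC B lay between the MPP3 libraries.

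Myeloid receptors and surface markers had 54 regions of 21 genes, 38 of them positive, with a median of 0.21, and 5 were higher and 2 lower at the unadjusted threshold (9.26% and 3.70%, against 3.49% and 2.19% of all regions). Igsf6, a myeloid immunoglobulin-family gene, had a promoter region with 146 and 161 in MPP3, against 67.3 and 84.8 in LT-HSC (0.99, SE 0.40). The 2 lower regions lay in P2ry14, a UDP-glucose receptor gene that stem cells also express, and near Fpr2, a formyl peptide receptor gene. P2ry14 had 129 and 117 in MPP3, against 260 and 212 in LT-HSC (-0.91, SE 0.37), and Fpr2 had 133 and 136, against 247 and 283 (-0.95, SE 0.39). The growth factor receptor genes were near even: the Csf3r promoter region had 260 and 180 in MPP3, against 170 and 305 in LT-HSC (-0.08, SE 0.44), and the Csf1r intragenic region 245 and 336, against 217 and 369 (0.02, SE 0.36). The libraries of the cell types overlapped at both. The Kit promoter region, for the stem cell factor receptor of both cell types, had 468 and 526 in MPP3, against 357 and 439 in LT-HSC (0.32, SE 0.27).

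Genes of stem cell transcription factors leaned to the lower side, while the main promoter regions of Hlf, Meis1 and Mecom were near even. Of 158 regions of 30 genes, 52 had a positive difference, with a median of -0.12, and 1 was higher and 10 lower at the unadjusted threshold (0.633% and 6.33%, against 3.49% and 2.19% of all regions). The median was -0.08 without MPP3 B, and 0.02 with all regions of a mean of at least 20. The Hlf promoter region had 309 and 325 in MPP3, against 305 and 354 in LT-HSC (-0.05, SE 0.28). The Meis1 promoter region, for a Hox cofactor, had 501 and 567, against 628 and 547 (-0.14, SE 0.26). The main Mecom promoter region, for the stem cell factor EVI1, had 737 and 758, against 635 and 742 (0.12, SE 0.26). The libraries overlapped at all 3. A smaller Mecom promoter region had 99.5 and 58.3 in MPP3, against 78.9 and 166 in LT-HSC (-0.56, SE 0.65). Its libraries overlapped too, and it stood at -1.28 in mutants (SE 0.43). Of the 12 Meis1, 6 Hlf and 4 Mecom regions, 0 had an unadjusted p under 0.05 (5.69% of all regions did).

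Of the 10 lower regions of this list, 5 were promoter regions and 5 distal, and 4 of the 10 lay at Nkx2-3 and 2 at Hoxa10. A promoter region of Gata2, a factor gene needed by stem cells, had 355 and 326 in MPP3, against 539 and 660 in LT-HSC (-0.80, SE 0.32). The other Gata2 promoter region had 225 and 183, against 226 and 223 (-0.14, SE 0.37), where the libraries overlapped. The higher region of the list was the promoter region of the nuclear receptor gene Nr4a2, with 390 and 406 in MPP3, against 283 and 161 in LT-HSC (0.89, SE 0.30). Runx1, which serves both cell types, had regions in both directions: one 18102 bp from a start had 188 and 201 in MPP3, against 44.0 and 121 in LT-HSC (1.36, SE 0.51), and 7 of its 11 regions had a negative difference.

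Stem cell surface and vascular genes differed little. They had 61 regions of 24 genes, 25 of them positive, with a median of -0.11, and 1 was higher and 3 lower (1.64% and 4.92%, against 3.49% and 2.19% of all regions). The median was -0.04 without MPP3 B and -0.18 without MPP3 A. A region 7527 bp from Tie1, an endothelial and stem cell receptor gene, had 103 and 104 in MPP3, against 225 and 229 in LT-HSC (-1.11, SE 0.42). The Procr promoter region, for the stem cell marker EPCR, had 102 and 94.5, against 116 and 61.4 (0.20, SE 0.54), and its libraries overlapped. The 2 intergenic Procr regions had negative differences. One had 66.7 and 64.9 in MPP3, against 95.6 and 128 in LT-HSC (-0.71, SE 0.64), with libraries apart. The other had 163 and 146, against 273 and 161 (-0.43, SE 0.38), with overlap. In mutants they stood at -1.26 (SE 0.42) and -0.96 (SE 0.25).

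Hox cluster genes, which encode homeodomain factors of stem cells and early progenitors, were the list that stood lowest. All 27 tested regions of 20 genes had a negative difference, with a median of -0.67, and 7 were lower and 0 higher at the unadjusted threshold (25.9% and 0%, against 2.19% and 3.49% of all regions). In 21 of the 27 both MPP3 libraries lay below both LT-HSC libraries (18.9% of all regions). The median kept its sign in all 13 other settings, between -0.68 and -0.47. A Hoxa10 promoter region had 311 and 286 in MPP3, against 437 and 608 in LT-HSC (-0.78, SE 0.32), and a smaller one 94.8 and 85.3, against 229 and 252 (-1.38, SE 0.57). The Hoxa9 promoter region had 217 and 320, against 273 and 294 (-0.10, SE 0.35). The promoter regions of Hoxa9 and Hoxa4 (-0.03) were the 2 of the Hoxa cluster whose libraries overlapped, and that of Hoxb4 overlapped too (-0.02).

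Erythroid and megakaryocyte genes leaned to the lower side, with 14 of 53 regions positive, a median of -0.24, and 7 lower and 1 higher at the unadjusted threshold (13.2% and 1.89%, against 2.19% and 3.49% of all regions). The median was -0.04 without MPP3 B and -0.37 without MPP3 A. The Gp1ba promoter region, whose window is printed above, had 73.7 and 75.7 in MPP3, against 230 and 200 in LT-HSC (-1.47, SE 0.45, adjusted p = 0.534). Gp9, the gene of its partner subunit in the platelet receptor complex, had regions at -1.27 and -1.11, and the promoter region of Pf4, for platelet factor 4, stood at -0.88, with libraries apart at all 3 regions. A region inside Zfpm1, the gene of the GATA1 cofactor FOG1, had 73.7 and 57.5 in MPP3, against 180 and 272 in LT-HSC (-1.70, SE 0.49, adjusted p = 0.462). All 14 Zfpm1 regions had a negative difference. Klf1, the erythroid factor gene, had an even promoter region (-0.15).

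**Figure D3:**
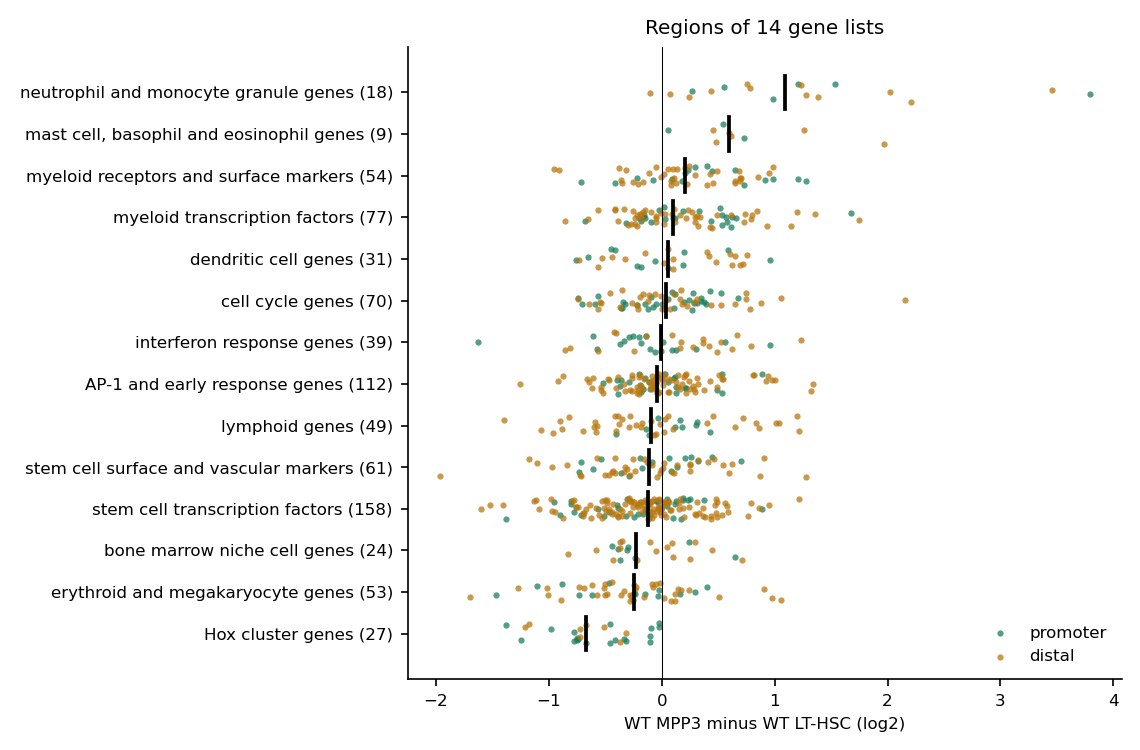
Log2 difference between WT MPP3 and WT LT-HSC for every tested region of 14 gene lists (number of regions in brackets), promoter regions in green, distal regions in orange, and the list median as a black bar. The granule list has a median of 1.09, with Ctsg at 3.79 and 3.45, and the Hox list a median of -0.67 with no region above 0.

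Most regions that differed stood alone, and a few loci held several. Regions with an unadjusted p under 0.05 and no overlap of libraries were joined where they lay within 50000 bp of each other in the same direction. The 862 placed higher regions fell into 751 loci, 22 of which held 3 or more, and the 537 lower ones into 489 loci, 7 of which held 3 or more. How many loci chance alone would give was not tested. The higher locus with most regions lay nearest Vmn1r2, a vomeronasal receptor gene, with 5 of 7 tested regions in 34929 bp, between 0.94 and 1.52 (chr4:3050004-3084932). Whether the reads of this locus map to it alone was not tested. Regions past the unadjusted threshold with libraries apart belonged to 724 genes on the higher side and 478 on the lower side, and 41 genes had both. At the Mpo locus all 4 tested regions in a stretch of 21389 bp were of this kind. From position -15688 to position 18645 relative to the Mpo start, 6 of 6 tested regions had a positive difference and 5 had libraries apart. The exception lay farthest upstream, in Tspoap1, with 283 and 234 in MPP3, against 204 and 274 in LT-HSC.

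At the adjoining genes Lta4h, for the enzyme that makes leukotriene B4, and Hal, 6 of 7 regions were higher with libraries apart. A region upstream of Lta4h had 128 and 150 in MPP3, against 30.9 and 27.3 in LT-HSC (2.11, SE 0.71), and the second Hal promoter region 183 and 122, against 34.9 and 57.5 (1.65, SE 0.47). The Lta4h promoter region, open in both cell types, had 509 and 637, against 437 and 443 (0.37, SE 0.27). The strong promoter had the smaller difference of the 3. Ltb4r2, named above, encodes a receptor for the product of the same enzyme.

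On the lower side, all 8 tested regions around Nkx2-3 had a negative difference, 7 with libraries apart. The promoter region had 115 and 124 in MPP3, against 238 and 214 in LT-HSC (-0.90, SE 0.39), and a region 40552 bp upstream 94.8 and 103, against 200 and 244 (-1.13, SE 0.41). In the Hoxa cluster 14 of 14 regions had a negative difference, 12 with libraries apart and 5 with an unadjusted p under 0.05. The Hoxa2 promoter region had 132 and 89.7 in MPP3, against 163 and 429 in LT-HSC (-1.25, SE 0.50), where the LT-HSC libraries differed widely.

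**Figure D4:**
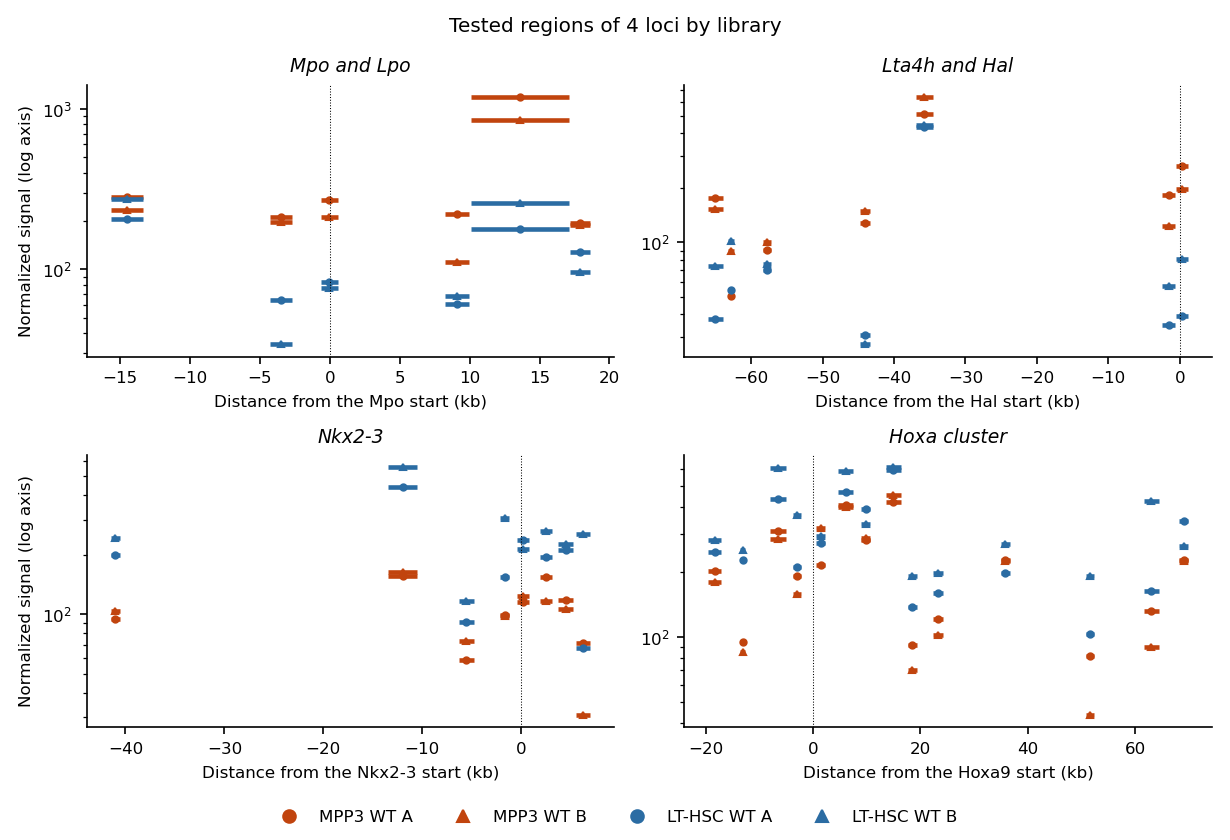
Normalized ATAC signal (log axis) of every tested region at 4 loci against distance from the start of Mpo, Hal, Nkx2-3 or Hoxa9 along the direction of that gene, with bars as wide as the regions, MPP3 WT in orange and LT-HSC WT in blue. Orange lies above blue in 5 of 6 regions at Mpo and 6 of 7 at Hal, and below blue in 7 of 8 at Nkx2-3 and 12 of 14 in the Hoxa cluster.

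Other genes had 3 regions in a locus. Cnr2, the cannabinoid receptor gene of leukocytes, had 3 regions between 0.88 and 1.84, Tifab 3 between 1.27 and 2.00, and the stretch downstream of Cebpb, with the region given above, 3 of 6 between 0.79 and 1.61. On the lower side Myh9, the gene of non-muscle myosin IIA, had 3 between -1.31 and -0.86, and Gse1 3 between -1.69 and -0.99, though Gse1, with 45 tested regions in all, had 2 higher ones too. The mutant libraries gave the same sign at all 3 regions of each of these 5 loci. Other loci of 3 higher regions, at Zmiz1, at Acbd3 and H3f3a, and at Rbm38, had the same sign in mutants at 1 of 3 each. All loci named here were picked from the data.

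The 10 mutant libraries gave a second reading of the same cell type difference. The WT difference is one of WT libraries only, but the spread behind its p-values and the choice of tested regions use all 14 libraries. As the mean over the 3 mutant genotypes, limma gave 1 region at an adjusted p under 0.05 (0.00398%). It was the distal Nkx2-3 region (-1.51, SE 0.22, adjusted p = 0.0297), the same region that led the lower side in WT. At an unadjusted p under 0.05, 1442 regions were higher (5.74%) and 1482 lower (5.9%) in mutant MPP3, and the 5 MPP3 libraries lay above all 5 LT-HSC libraries in 312 regions (1.24%) and below all in 334 (1.33%).

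Regions with large WT differences mostly had the same sign in mutants. Of the 828 regions over 2-fold higher in WT MPP3, 700 (84.5%) were higher in mutant MPP3 too, and of the 490 over 2-fold lower, 454 (92.7%) were lower. Over all regions of positive WT difference the share was 65.1%, and of negative WT difference 60.8%. Among promoter regions the counts were 76 of 104 higher and 82 of 91 lower, and among distal regions 624 of 724 and 372 of 399. Without single WT libraries the share on the higher side ran between 66.9% (without MPP3 B) and 89.1% (without MPP3 A), and on the lower side between 82.0% and 91.8%. Over all tested regions Pearson's r between the WT and the mutant difference was 0.46, 0.35 in promoter and 0.51 in distal regions, across regions that share libraries and are not independent.

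The size in mutants was smaller. The 828 higher regions had a median of 1.28 in WT and 0.49 in mutants, and the 490 lower ones -1.18 in WT and -0.58 in mutants. Since the regions were picked by their WT size, a smaller value in other libraries is built into the choice, and this gap was given no test. The test of WT minus mutant across all regions gave 0 (0%) at an adjusted p under 0.05 and 487 (1.94%) at an unadjusted p under 0.05, so no cell type difference can be called particular to WT.

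**Figure D5:**
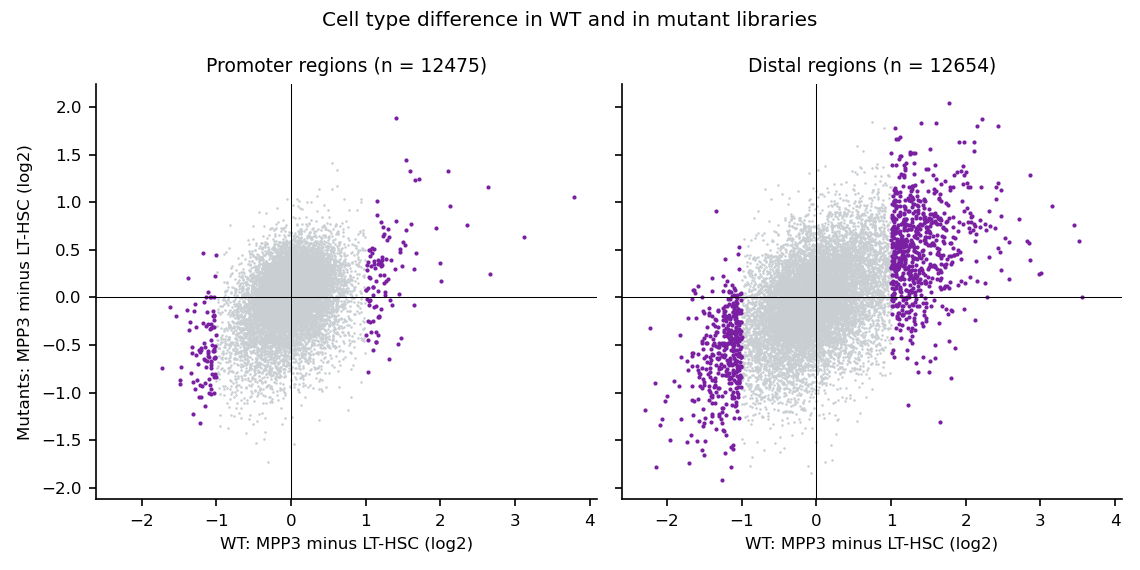
Log2 difference between MPP3 and LT-HSC in mutant libraries (vertical) against that in WT libraries (horizontal) for each promoter region (left) and distal region (right), with regions over 2-fold in WT in purple. Purple points lie mostly in the quadrants of equal sign, 76 of 104 higher and 82 of 91 lower promoter regions, and 624 of 724 higher and 372 of 399 lower distal regions.

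The genotypes contributed unequally. Of the 828 higher regions, 85.5% were higher in Dnmt3a MPP3, 63.6% in Npm1 MPP3 and 77.7% in Dnmt3a;Npm1 MPP3. Of the 490 lower regions, 61.4% were lower in Dnmt3a, 94.3% in Npm1 and 77.1% in Dnmt3a;Npm1. Over all regions the shares higher were 48.1%, 51.1% and 51.6% in the same order. LT-HSC Dnmt3a and MPP3 Dnmt3a;Npm1 are 1 library each, and these shares were given no test.

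All 24 regions named by class had the same sign in mutants. Those with an unadjusted p under 0.05 in mutants were 2 of 6 promoter regions on the higher side (Trem3 and Hal), 5 of 6 on the lower side, and 3 (Lpo, Atp9b and Mapk4) and 5 of 6 distal regions. The WT and mutant p-values of a region share 1 estimate of the spread. Choosing regions by a small WT p thus also favours a small mutant p, and these counts are no independent evidence. WT minus mutant had an unadjusted limma p under 0.05 in 5 of 6 promoter regions on the higher side and 1 of 6 on the lower side. In distal regions these were 6 of 6 and 3 of 6, against 1.94% of all regions. The choice by WT difference favours such a gap. Ctsz, the leading promoter region in WT, stood at 0.03 in mutants (SE 0.19), and Lpo at 1.16 (SE 0.25). The Mpo promoter region stood at 1.45 (SE 0.41) and the Elane promoter region at 1.41 (SE 0.40), which for Elane exceeds its 0.55 in WT. In mutants, 15 of 18 granule regions were positive (median 0.56). Of the 27 Hox regions 7 were positive (median -0.20), and the larger Hoxa10 promoter region stood at -0.04 (SE 0.21). Of the 9 mast cell, basophil and eosinophil regions, all positive in WT, 4 were positive in mutants (median -0.07).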

How the data were processed

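ATAC-seq was run on 14 libraries of sorted bone marrow cells in 8 groups, 6 of 2 libraries and 2 of 1 (LT-HSC Dnmt3a and MPP3 Dnmt3a;Npm1). Per the labels, sorted nuclei were transposed and the fragments amplified by PCR. The deposited table gives 1 signal value per region and library on mm10. Low values of LT-HSC WT A and B fall on rounded whole multiples of a single step (2.55 and 1.85), so the authors had scaled the values by library. The steps fitted for MPP3 WT A and B were under 1 (0.923 and 0.538), where every whole number is such a multiple. The submitters' processing notes name R 3.6.0, DiffBind 2.12.0, edgeR 3.26.4 and HOMER 4.10, with no role. The aligner, the peak caller and any shift of reads to the cut site are not given in the sources used here. All 14 columns were assigned to a sample.

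Regions with a mean of at least 100 over the 14 libraries were divided by trimmed-mean factors computed over them, since the share of signal in these regions differs between libraries. limma 3.58.1 (R 4.3.3, robust trended prior) was fitted to log2(value + 4) with 1 mean per group, and adjusted p is Benjamini-Hochberg over 25129 regions. Differences are log2, MPP3 minus LT-HSC, on the log2(value + 4) scale, which understates differences of low values. All p-values are two-sided, and SE is from limma. The mutant difference is the mean over 3 genotypes. A normalized signal of 100 rests on 55.5 to 427 reads in the 4 WT libraries, a counting error of 0.07 to 0.19 on the log2 scale, which covers counting error only. PCR copies are not independent molecules.

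Starts came from the RefSeq promoter table (GRCm38.p6) for 17491 of 21896 protein-coding genes, and either gene bound was used for the other 4405. A distal region was given the nearest gene within 100000 bp. Named were the 6 regions of smallest p per class and direction with libraries apart, the 3 genes of smallest p in each of 14 gene lists, and a set of marker genes in every case; other genes were picked after their values were seen. The members and lists were chosen with earlier results of these data known. Scripts in Python 3.11.15 and R were tested on simulated data. Alternatives were other scalings, filters, pseudocounts, replicate blocks, a covariate, and leaving out single libraries.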

Additional observations from a re-analysis of the deposited data

How the results depend on the processing

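With library totals as scaling, 25 WT regions and 72 mutant regions passed the adjusted threshold, 85.7% of the regions at an unadjusted p under 0.05 were distal (75.9% as reported), and 92.3% of the regions over 2-fold higher and 79.5% of those over 2-fold lower had the same sign in mutants. Quantile normalization gave 13 mutant regions and 87.5% on the higher side. With a mean of at least 20, 50 and 200, the WT count at the unadjusted threshold was 12232, 3152 and 487, the distal share 95.3%, 87.5% and 56.9%, the same-sign share 58.4%, 73.9% and 87.0% on the higher side and 59.4%, 78.1% and 100% on the lower side. The filter of 20 gave 2 WT regions and that of 50 gave 0 mutant regions at the adjusted threshold. The 4 WT libraries alone gave 1 region adjusted and 2146 unadjusted, with 70.4% distal. limma with a plain prior gave 80.1% distal. The share of signal in tested regions as a covariate left 0 mutant regions. Leaving out single WT libraries gave 0 to 12 WT regions adjusted, 803 to 2072 unadjusted, 66.1% to 80.8% distal, a same-sign share of 66.9% to 89.1% (higher) and 82.0% to 91.8% (lower), and a distal minus promoter difference of -0.20 to 0.15.

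The fit with the replicate letter as a replicate block gave 0 WT regions adjusted, 1375 unadjusted and 1 mutant region, and changed no call. Whether libraries of the same letter share an origin is not stated in the labels. Same-letter WT libraries had a correlation of deviations of -0.25. The crossed pairing, chosen after seeing the data, gave 378 regions adjusted and 3314 unadjusted, 67.1% of them distal, and library weights, also chosen then, gave 59, 2262 and 72.3%, with 21 mutant regions. The test of WT minus mutant gave 0 regions at the adjusted threshold in every alternative run.

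Of 63 named regions with an unadjusted p under 0.05, 0 changed sign in 13 refits. The threshold was kept by 49 with library totals, 43 without MPP3 A, 44 without MPP3 B, 51 without LT-HSC A, 45 without LT-HSC B and at least 60 in each of the others. The near-even promoter regions changed sign. Hlf stood at 0.034 with library totals and between -0.16 and 0.054 without single libraries. Csf3r stood at 0.0092 with library totals, 0.019 with the covariate and between -0.49 and 0.34 without single libraries. Irf8 stood at 0.017 with the covariate and between -0.60 and 0.42, Cebpe between -0.035 and 1.35, and Procr between -0.24 and 0.64 without single libraries. The cause was not tested. A count test on whole reads was not run, because steps under 1 in MPP3 keep reads from being recovered. With 2 libraries a cell type, the design limits what single regions can show, and depth does so too where LT-HSC values rest on few reads. These limits were not compared.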

Other observations

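Lists outside the stem and myeloid programmes held single regions that differed in WT. Hdc encodes the histamine-making enzyme of mast cells and basophils, and a region inside it had 118 and 115 in MPP3, against 36.4 and 19.5 in LT-HSC (1.97, SE 0.54). It stood at -0.12 in mutants. Of the 70 regions of 26 cell cycle genes, 4 were higher and 0 lower at an unadjusted p under 0.05 (5.71% and 0%, near the 3.49% and 2.19% of all regions), with a median of 0.03. A region inside Cdk6, a kinase gene of cell cycle entry, had 281 and 212 in MPP3, against 89.0 and 29.2 in LT-HSC (2.16, SE 0.77), and one inside Cdkn1a, the gene of the inhibitor p21, had 232 and 154, against 109 and 72.1 (1.06). The libraries were apart at both.

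Interferon response genes had 39 regions of 17 genes, of which 2 were higher and 1 lower (5.13% and 2.56%, near the shares of all regions), with a median of -0.01 that had the other sign in 5 of 13 settings. The lower one was the promoter region of Ifitm3, an antiviral membrane protein gene, with 39.8 and 64.4 in MPP3, against 111 and 244 in LT-HSC (-1.63, SE 0.65), and a region near the receptor gene Ifnar1 had 160 and 107, against 46.5 and 61.4 (1.23). AP-1 and early response genes had 112 regions, of which 3 were higher and 2 lower (2.68% and 1.79%, below the 3.49% and 2.19% of all regions), with a median of -0.04. A region near Jun had 327 and 283 in MPP3, against 145 and 155 in LT-HSC (1.00), and one near Btg2, an antiproliferative gene, 79.6 and 78.8, against 162 and 235 (-1.26).

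Lymphoid genes had 49 regions, of which 4 were higher and 3 lower (8.16% and 6.12%, against 3.49% and 2.19% of all regions), with a median of -0.09. Ikzf1, the gene of the lymphoid factor Ikaros, had a region with 248 and 220 in MPP3, against 149 and 66.2 in LT-HSC (1.20), and Tcf7, a T cell factor gene, one with 94.8 and 101, against 169 and 258 (-1.07). Dendritic cell genes had a median of 0.05 over 31 regions and niche cell genes a median of -0.23 over 24, and 0 regions of either list had an unadjusted p under 0.05. The summed niche signal was 3900 and 3760 in MPP3, against 3695 and 4780 in LT-HSC, so the libraries overlapped.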
